A study of Mus musculus with 9 samples.

Results

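The genes described here carry iron into, within and out of cells. They are 10 of the 34650 gene names on a mouse array, and they were taken by name as the probes labeled Tfrc, Slc11a1, Slc11a2, Slc40a1, Fth1, Ftl1, Ireb2, Steap3, Heph and Cp. All 10 had at least 1 probe, 18 probes in all, and all 10 were tested, 1 probe per gene.

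RNA was measured in primary mouse microglia before and after they engulfed apoptotic cells. The 3 groups were control microglia given no apoptotic cells (0 h) and microglia fed with them for 3 h (Ph3h) or for 24 h (Ph24h), 3 arrays each. Microglia in every group came from the brains of fms-EGFP pups aged 0 to 1 d, in which the fms promoter drives a green reporter in microglia, with the olfactory bulb and cerebellum removed. They were grown in serum and 5 ng/ml GM-CSF for about 14 d and left to settle for at least 24 h. The fed cells were human SH-SY5Y neuroblastoma cells, labeled with CM-DiI and treated with 3 μM staurosporine for 4 h to induce apoptosis, and floating dead cells were added at about 1 per microglial cell. There was no unfed culture at 3 or 24 h among these samples, so feeding and time in culture cannot be told apart. The study describes 3 independent experiments, but the labels do not name the cultures, so the p values measure the spread between these arrays, and 3 arrays per group limit the precision.

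Iron bound to transferrin enters cells through the transferrin receptor and is reduced by a Steap protein in the endosome, and divalent metal transporters then carry it into the cytosol. Ferritin, a shell of heavy and light chains, stores it, and ferroportin exports it with the help of the ferroxidases hephaestin and ceruloplasmin. Iron regulatory proteins bind the messenger RNAs of several of these genes when iron is low, which stabilizes the transferrin receptor message and blocks the translation of ferritin. Macrophages, microglia among them, take up the iron of the cells they engulf. The iron content of the fed cells and of the microglia was not measured here.

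Levels below are log2 intensities relative to the 75th percentile of the same array, so a level of 0 is that percentile. Fed microglia gave dimmer arrays. The 75th percentile intensity lay between 355 and 472 in control, between 185 and 211 at 3 h and between 156 and 161 at 24 h, and no spot was saturated. All 8 microglial markers were above background in control, and P2ry12 was not well above background on any Ph24h array. The summed level of the 8 microglial markers, on a linear scale, lay between 913 and 964 before feeding, between 1230 and 1390 at 3 h and between 775 and 801 at 24 h. The summed level of 10 neuroblastoma markers was 1.14 to 1.34, 117 to 131 and 164 to 177 in the same order, and 7 of the 8 tested were higher than control at both times, while no array measured Phox2a or Dbh well above background. The remaining tested marker, Gata3, was lower than control at 3 h (-1.59 on the log2 scale), and its difference at 24 h did not pass the test. The summed level of 5 fibroblast and pericyte markers was 0.858 to 1.8 over the 9 arrays, and that of 4 endothelial markers was 7.41 to 10.6 in control, 11.7 to 11.9 at 3 h and 13.5 to 15.2 at 24 h. The endothelial sum rested mainly on Kdr, at 3.14, 3.51 and 3.78 in mean log2 level. Cdh5 was lower than control at 3 h and 24 h (-0.91 and -1.56 on the log2 scale) and well above background on no fed array. Pecam1 was higher at 3 h only (0.73), and no array measured Cldn5 well above background. The study's methods give fixed amounts of RNA for labeling and of labeled RNA for each array. Array brightness therefore measures neither the number of cells nor the RNA per cell. Because this is bulk RNA, fewer cells of a type and less of a marker's RNA per cell cannot be told apart.

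Probe sequences are shown for Tfrc and Ftl1, which have a probe that crosses an exon junction, for Slc11a2, Steap3 and Cp, whose probes gave different values, and for the single probe of Ireb2. All are 60 bases, printed 5′ to 3′ as in the array annotation, with positions in mm9. The first Tfrc probe lies at chr16:32620470-32620529 and the second is spread over chr16:32624877-32625093, a stretch of 217 bases on the plus strand that is longer than the probe, so it crosses an intron. The Ftl1 probe below is likewise spread over 482 bases on the minus strand, chr7:52714014-52714495. The other probes are at chr15:100240516-100240575, minus strand (Slc11a2), chr1:122124269-122124328, minus strand (Steap3), chr9:54756566-54756625, plus strand (Ireb2), and chr3:19889071-19889130, plus strand (Cp).
Tfrc probe 2: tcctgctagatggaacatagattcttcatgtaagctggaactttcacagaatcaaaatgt
Tfrc probe 3: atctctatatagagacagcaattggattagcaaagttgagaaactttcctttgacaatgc
Slc11a2 probe 2: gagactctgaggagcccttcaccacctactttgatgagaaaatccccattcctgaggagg
Steap3 probe 1: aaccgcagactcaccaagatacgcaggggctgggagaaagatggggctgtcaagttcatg
Ftl1 probe 2: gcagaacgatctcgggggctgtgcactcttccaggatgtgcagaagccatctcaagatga
Ireb2 probe 1: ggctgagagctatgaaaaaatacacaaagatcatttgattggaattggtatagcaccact
Cp probe 1: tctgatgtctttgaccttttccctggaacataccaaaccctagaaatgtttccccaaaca

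Iron genes changed in both directions after feeding. At 3 h, 8 of the 10 genes passed the test against control, where 53.8% of the 24101 genes tested did so, and of these 8, 4 were higher (27.9% of all genes) and 4 lower (25.9%). At 24 h all 10 passed, where 63.1% of genes did so, with 5 higher (29.9% of all genes) and 5 lower (33.2%). Between 3 h and 24 h, 9 genes passed, against 44.4% of genes, with 5 higher (20.3% of all genes) and 4 lower (24%). The median log2 fold change of the 10 genes was 0.09 at 3 h and -0.19 at 24 h, and over all genes tested it was 0.07 and 0.01. Tfrc, Steap3 and Slc40a1 were lower at both times, Slc11a1, Fth1 and Ftl1 were higher at both times, Heph was lower and then higher, and Cp was higher and then lower. Slc11a2 and Ireb2 passed only at 24 h in these tests. Scaling the arrays to their medians rather than to the 75th percentile shifted the log2 fold change of each gene by -0.245 at 3 h and -0.508 at 24 h.

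The arrays of control and Ph3h did not overlap for 9 of the 10 genes, where 65.7% of all genes had no overlap. The arrays of Ph24h did not overlap with those of control for 10 of the 10, against 71.3% of all genes, or with those of Ph3h for 10 of the 10, against 56.9%. Slide 1 held replicates 1 and 2 of every group, and slide 2 held replicate 3. Each gene that passed a test had the same direction on both slides. This follows from the lack of overlap between the groups and adds nothing to it.

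**Figure D1:**
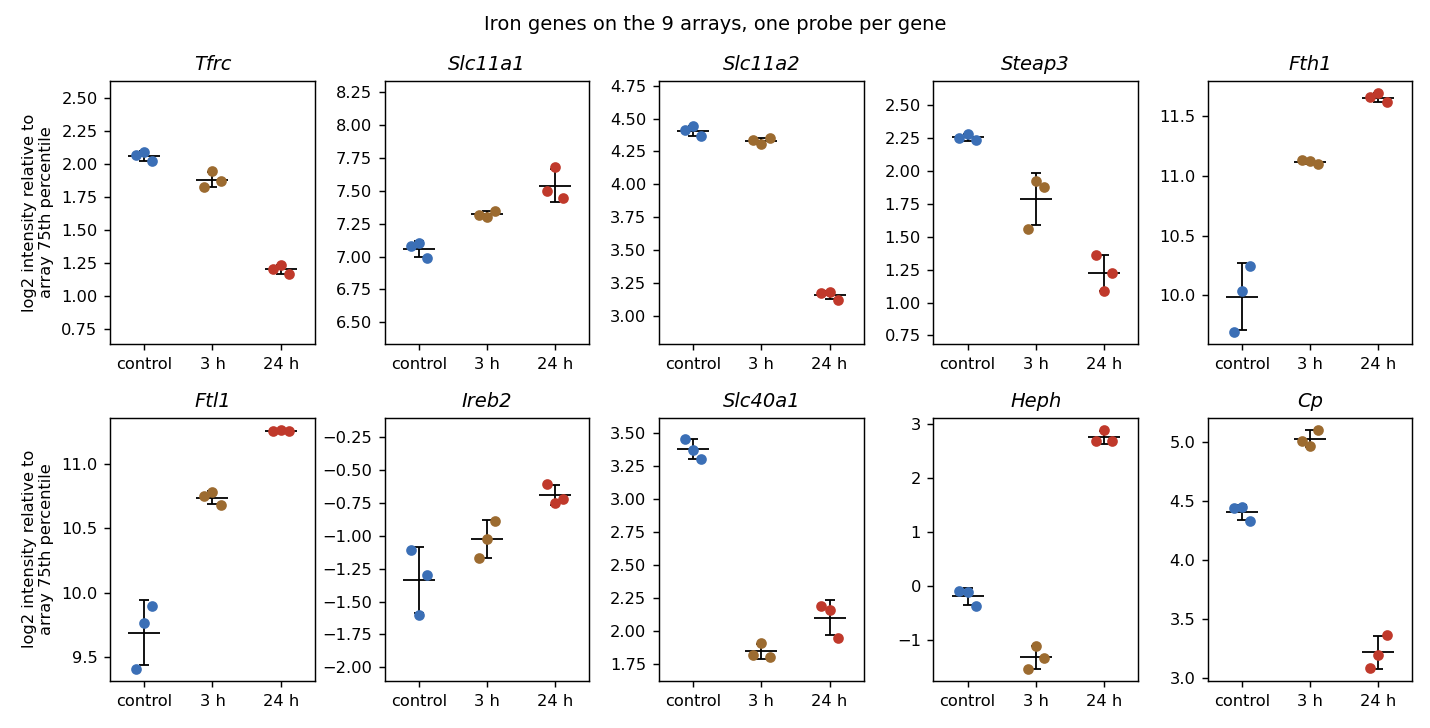
Level of each iron gene (log2 intensity relative to the array's 75th percentile, y axis, a separate scale per gene) on the 9 arrays by group (x axis). Points are arrays, lines are group means and bars are 1 SD. Heph runs from about the 75th percentile in control to below it at 3 h and to 2.68 or more at 24 h, while Cp goes the other way.

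Transferrin receptor fell, mostly between 3 h and 24 h. Tfrc encodes the receptor that brings transferrin-bound iron into the endosome. Its level was 2.07, 2.09 and 2.02 in control, 1.83, 1.95 and 1.87 at 3 h and 1.21, 1.23 and 1.16 at 24 h. Every Ph3h array was below every control array, and every Ph24h array was below both groups. The log2 fold change was -0.18 at 3 h (SE 0.05, adjusted p = 0.0257) and -0.86 at 24 h (SE 0.05, adjusted p = 1.03e-05), which is 1.82-fold lower. From 3 h to 24 h it fell by 0.68 on the log2 scale (adjusted p = 5.12e-05). The small fall at 3 h lost its call when control replicate 1 (adjusted p = 0.0681), control replicate 2 (0.0847), Ph3h replicate 1 (0.0754) or Ph3h replicate 3 (0.0679) was left out.

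The other probes of Tfrc, whose sequences are printed above, fell too. Probe 2 changed by -0.55 at 3 h (SE 0.11, adjusted p = 0.0039, over probes) and -1.27 at 24 h (adjusted p = 4.57e-05). The junction-crossing probe 3 changed by -0.30 at 3 h (SE 0.13, adjusted p = 0.0843) and -1.06 at 24 h (SE 0.13, adjusted p = 0.000276). All 3 probes were well above background on all 9 arrays. The brightest probe was spotted 10 times on each array and the others once.

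The endosomal reductase and the second transporter also fell. Steap3, the ferrireductase that reduces iron released from transferrin, was at 2.25, 2.28 and 2.23 in control, 1.56, 1.92 and 1.87 at 3 h and 1.36, 1.08 and 1.23 at 24 h. The groups did not overlap, and Ph3h replicate 1 lay below the other Ph3h arrays. Its log2 fold change was -0.47 at 3 h (SE 0.11, adjusted p = 0.00989) and -1.03 at 24 h (SE 0.11, adjusted p = 0.000155), or 2.04-fold lower. A dimmer Steap3 probe changed less, by -0.02 at 3 h (SE 0.09, adjusted p = 0.854) and -0.29 at 24 h (SE 0.09, adjusted p = 0.0307).

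Slc11a2 encodes DMT1, the divalent metal transporter that passes iron from the endosome to the cytosol. The level of its brightest probe was 4.42, 4.44 and 4.37 in control, 4.33, 4.31 and 4.35 at 3 h, and 3.18, 3.18 and 3.12 at 24 h. Control and Ph3h arrays lay next to each other, with every Ph3h array just below every control array, and the Ph24h arrays were more than a log2 unit below both. The log2 difference from control was -0.08 at 3 h (95% interval -0.19 to 0.04, adjusted p = 0.225), which did not pass the test, and -1.25 at 24 h (SE 0.05, adjusted p = 1.05e-06), or 2.38-fold lower. The 3 h difference was called with median scaling (-0.32, adjusted p = 0.0141) and with quantile normalization (-0.15, adjusted p = 0.0266). It was also called with normexp background correction (-0.17, adjusted p = 0.0366) and with the authors' values (-0.15, adjusted p = 0.0326). The normexp setting shares the quantile step, and the authors' values nearly equaled the quantile-normalized ones, so these calls are not separate support. The probe near the start of the message, Slc11a2 probe 2 above, differed in size and, at 3 h, in direction. Its level rose at 3 h by 0.32 on the log2 scale (SE 0.10, adjusted p = 0.036) and fell at 24 h by 0.29 on the log2 scale (adjusted p = 0.0449). DMT1 messages are known to exist with different first exons and different ends, and the deposited values do not say which of them each probe follows.

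Slc11a1, which encodes NRAMP1, the divalent metal transporter of phagosomes in macrophages, moved the other way. Its level was 7.08, 7.10 and 6.99 in control, 7.32, 7.30 and 7.35 at 3 h and 7.50, 7.68 and 7.44 at 24 h. The 3 groups followed each other without overlap. Against control, the log2 fold change was 0.27 at 3 h (SE 0.07, adjusted p = 0.0183) and 0.48 at 24 h (SE 0.07, adjusted p = 0.000902), or 1.40-fold higher. These changes depended on how the arrays were scaled. With arrays scaled to their medians rather than to the 75th percentile, the log2 fold change was 0.02 at 3 h (adjusted p = 0.884) and -0.03 at 24 h (adjusted p = 0.837), and with quantile normalization the 3 h value was 0.05 (adjusted p = 0.523). The 3 h call was also lost without control replicate 3 (adjusted p = 0.0596) or Ph3h replicate 3 (0.054).

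**Figure D2:**
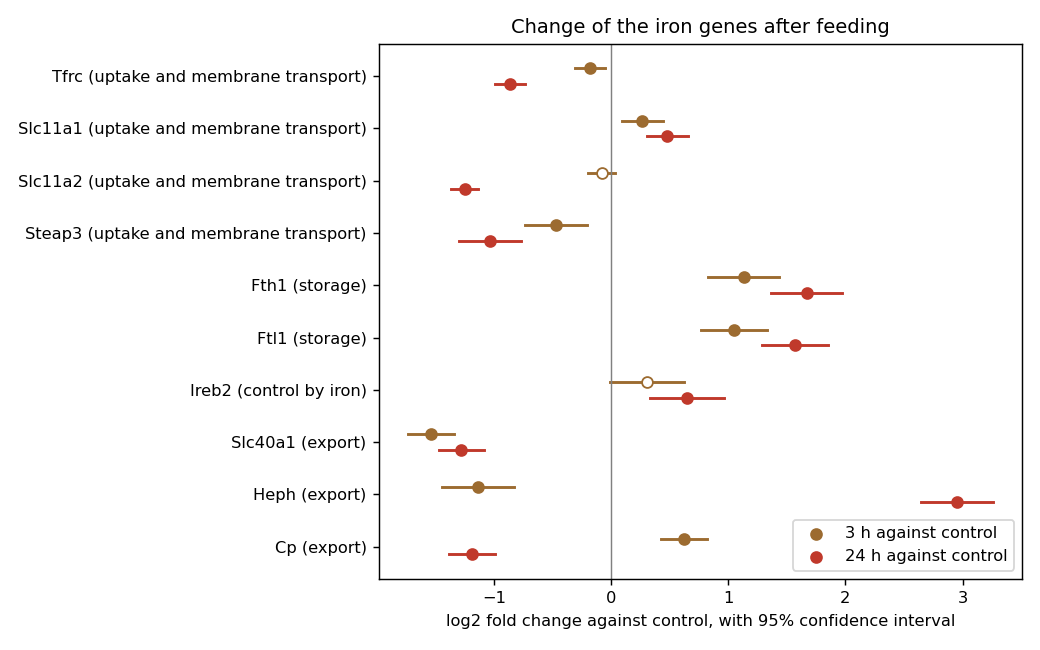
Log2 fold change against control (x axis) of the 10 iron genes at 3 h and 24 h, with 95% confidence intervals. Filled points passed the test at an adjusted p below 0.05 and open points did not. At 24 h the changes run from -1.28 for Slc40a1 to 2.95 for Heph.

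Both ferritin chains rose, and they were among the brightest probes on the array. Fth1, the heavy chain with ferroxidase activity, was at 9.69, 10.03 and 10.24 in control, 11.13, 11.13 and 11.10 at 3 h and 11.66, 11.69 and 11.62 at 24 h. The control arrays were spread over more than 0.5 log2 units and still lay below all fed arrays. The log2 fold change was 1.13 at 3 h (SE 0.13, adjusted p = 0.00024) and 1.67 at 24 h (SE 0.13, adjusted p = 2.57e-05), or 2.19-fold and 3.18-fold higher.

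Ftl1, the light chain that helps to build the iron core, followed the heavy chain closely. Its brightest probe was at 9.41, 9.77 and 9.89 in control, 10.75, 10.78 and 10.68 at 3 h and 11.26, 11.27 and 11.25 at 24 h. Its groups did not overlap either. Against control, the log2 fold change was 1.05 at 3 h (SE 0.12, adjusted p = 0.000234) and 1.57 at 24 h (SE 0.12, adjusted p = 2.33e-05), or 2.07-fold and 2.97-fold higher. The junction-crossing Ftl1 probe 2 rose less, by 0.41 at 3 h (SE 0.10, adjusted p = 0.00964) and 0.68 at 24 h (SE 0.10, adjusted p = 0.000636). From 3 h to 24 h the log2 rise was 0.54 for Fth1 (adjusted p = 0.0117) and 0.52 for the brightest Ftl1 probe (adjusted p = 0.00933). Neither passed with median scaling (0.27, adjusted p = 0.086, and 0.26, adjusted p = 0.0767), and that of Ftl1 also failed with normexp (0.16, adjusted p = 0.136) and on slide 1 alone (0.50, adjusted p = 0.0595). Ferritin genes have many near-identical copies in the genome, so part of either signal may come from such copies, and this was not tested.

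The size of the ferritin rise depended on the scaling. The unscaled intensity of the brightest probes of both genes changed little, while the 75th percentile of the arrays fell after feeding. The unscaled intensity of Fth1 was 390000, 432000 and 431000 in control, 474000, 414000 and 437000 at 3 h and 509000, 518000 and 507000 at 24 h. Its geometric means were 417000, 441000 and 511000, and 24 h was 1.23 times control. The unscaled ratio to control of the brightest Ftl1 probe was 0.997 (3 h) and 1.14 (24 h). That of Ftl1 probe 2 was 0.639 and 0.618. By contrast the ratio of the 24 h to the control intensity was 0.212 for the brightest Tfrc probe and 0.159 for Slc40a1. These ratios include the dimming of the arrays, whose 75th percentile had a geometric mean of 411 in control and 158 at 24 h. Among genes called higher at 24 h after scaling, the ratio was 0.537 for Slc11a1, 0.602 for Ireb2 and 2.99 for the brightest Heph probe.

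In rank among all probes, Fth1 was number 7, 6 and 4 in control, 2, 2 and 3 at 3 h and 1 on all 3 arrays at 24 h. The brightest Ftl1 probe ranked 43, 26 and 20 in control, 8, 6 and 9 at 3 h and 4 on all 3 Ph24h arrays. The 100 brightest probes of other genes had a median log2 fold change of 0.62 at 3 h, with 99 of them above 0, and of 0.67 at 24 h, with 95 above 0. Over the 21 ways of fitting the data, the log2 fold change of Fth1 ran from 0.28 to 1.27 at 3 h and from 0.57 to 1.82 at 24 h, and that of Ftl1 from 0.30 to 1.18 and from 0.46 to 1.68. Both genes passed the test in 21 of 21 at both times. Most neuroblastoma markers rose on the same fed arrays, as given above. The study reported low similarity to human transcripts for most probes, and degraded RNA and no new transcription in apoptotic SH-SY5Y cells. From this it proposes that the arrays detected microglial changes only. The part of human RNA in the ferritin signal was not tested here.

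**Figure D3:**
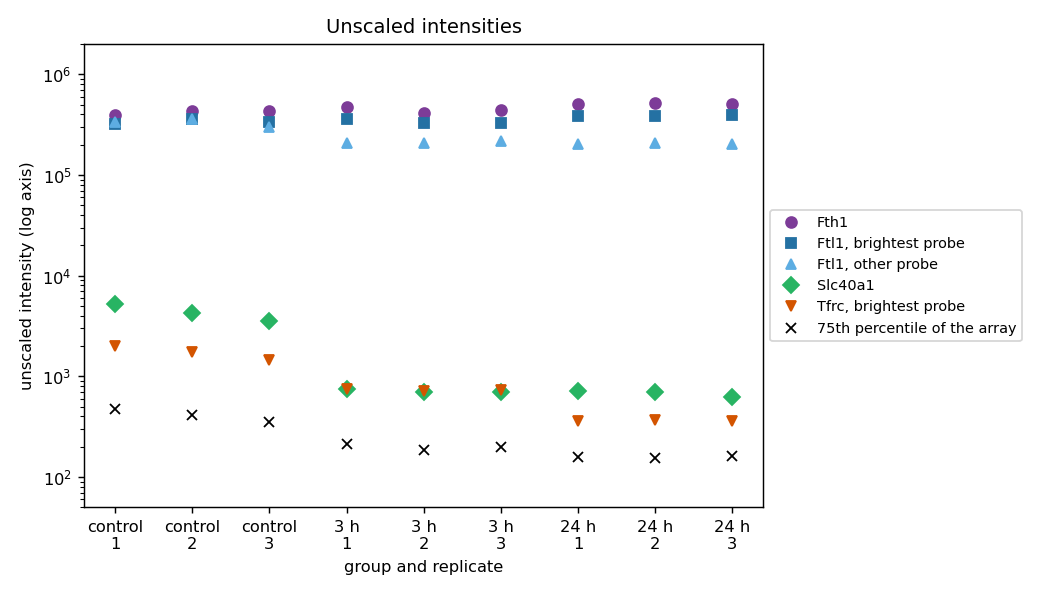
Unscaled intensity (y axis, log scale) of ferritin, Slc40a1 and Tfrc probes on the 9 arrays (x axis, group and replicate), with the 75th percentile of each array as crosses. Fth1 stays between 390000 and 518000 while the 75th percentile falls from 355 or more in control to 161 or less at 24 h.

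Ireb2, which encodes IRP2, one of the iron regulatory proteins that bind the ferritin and transferrin receptor messages, was dim but above background on all 9 arrays. Its level was -1.11, -1.60 and -1.30 in control, -1.17, -1.02 and -0.88 at 3 h and -0.60, -0.75 and -0.72 at 24 h. Control and Ph3h overlapped, and all Ph24h arrays were above both. The log2 difference from control was 0.31 at 3 h (95% interval -0.01 to 0.62, adjusted p = 0.09) and 0.65 at 24 h (SE 0.13, adjusted p = 0.00412), or 1.56-fold higher. With median scaling the 24 h value was 0.14 (adjusted p = 0.479), and without control replicate 1, the highest of its group, the 3 h value was 0.42 (adjusted p = 0.0334). IRP2 is controlled chiefly by degradation of the protein, which arrays do not measure.

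Ferroportin fell early and stayed low. Slc40a1 encodes the only known iron exporter of mammalian cells. Its level was 3.45, 3.38 and 3.30 in control, 1.81, 1.91 and 1.80 at 3 h and 2.19, 2.16 and 1.95 at 24 h. All fed arrays were more than a log2 unit below all control arrays. The log2 fold change was -1.54 at 3 h (SE 0.08, adjusted p = 5.98e-06) and -1.28 at 24 h (SE 0.08, adjusted p = 1.09e-05), or 2.90-fold and 2.43-fold lower. It passed the test at both times in 21 of 21 fits. The small rise from 3 h to 24 h, 0.26 on the log2 scale (SE 0.08, adjusted p = 0.0378), passed in 12 of 21 and was -0.01 with median scaling (adjusted p = 0.977). It was lost when control replicate 2, any single Ph3h array or Ph24h replicate 1 or 2 was left out, with adjusted p from 0.0506 to 0.114.

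The ferroxidases that work with ferroportin moved in opposite directions. Heph encodes hephaestin, a membrane-bound ferroxidase. The level of its brightest probe was -0.09, -0.13 and -0.38 in control, -1.54, -1.12 and -1.33 at 3 h and 2.68, 2.89 and 2.69 at 24 h. The 3 groups were far apart, with Ph3h lowest and Ph24h highest. Against control, the log2 fold change was -1.13 at 3 h (SE 0.13, adjusted p = 0.00027), or 2.19-fold lower, and 2.95 at 24 h (SE 0.13, adjusted p = 1.83e-06), or 7.74-fold higher. From 3 h to 24 h the log2 rise was 4.08 (SE 0.13, adjusted p = 1.18e-06). In unscaled intensity the geometric mean of this probe was 358 in control, 78.7 at 3 h and 1070 at 24 h, so the rise at 24 h was seen without any scaling.

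Of the 3 Heph probes, the other two lay 43.1 kb or more away on chromosome X in mm9, and they carried little signal. One was well above background on 2 control, 1 Ph3h and 3 Ph24h arrays. Its log2 difference from control was 0.07 at 3 h (SE 0.57, adjusted p = 0.929) and 1.55 at 24 h (SE 0.57, adjusted p = 0.0467), and the last probe was well above background on no array. With the mean over the kept probes in place of the brightest one, the Heph change was -0.53 at 3 h (adjusted p = 0.128) and 2.25 at 24 h, which passed. The probes name different messages of the gene, and which of them the bright probe follows was not tested. Heph is known to be active in oligodendrocytes. Of 8 oligodendrocyte markers, 6 were well above background on all control arrays and 5 on all arrays of either fed group, and no array measured Pdgfra well above background. Of the 7 tested, 3 were higher and 2 lower than control at 3 h, and 3 were higher and 3 lower at 24 h. The part of such cells in the Heph signal was not tested.

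Cp encodes ceruloplasmin, a copper ferroxidase that is secreted or anchored in the membrane. Its brightest probe, printed above, was at 4.44, 4.45 and 4.33 in control, 5.01, 4.97 and 5.11 at 3 h and 3.09, 3.20 and 3.37 at 24 h. The groups were apart from each other, with Ph3h highest and Ph24h lowest. The log2 fold change was 0.62 at 3 h (SE 0.08, adjusted p = 0.000595), or 1.54-fold higher, and -1.19 at 24 h (SE 0.08, adjusted p = 1.76e-05), or 2.28-fold lower. From 3 h to 24 h it fell by 1.81 on the log2 scale (adjusted p = 4.21e-06).

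The other Cp probe was dim, and its 3 Ph24h arrays were spread from -5.53 to -0.93, so its log2 differences of 0.15 at 3 h (SE 0.99, adjusted p = 0.911) and -0.68 at 24 h (SE 0.99, adjusted p = 0.583) did not pass the test. The mean over both probes did not pass either, at 0.39 at 3 h (adjusted p = 0.54) and -0.93 at 24 h (adjusted p = 0.13). Astrocytes are a known source of ceruloplasmin in brain. The summed level of 7 astrocyte markers was 6.5 to 7.67 in control, 10.9 to 13.2 at 3 h and 4.54 to 4.85 at 24 h. This sum rested mainly on Aldh1l1, at 2.67, 3.50 and 2.09 in mean log2 level. Of the 6 tested, Aldh1l1 was the only marker called at 3 h, and at 24 h it and S100b were lower. Of the 7 markers, 4, 3 and 2 were well above background on all arrays of the respective groups. No array measured Gja1 well above background, and no fed array measured Slc1a3 or S100b so. The part of other cells in the Cp signal was not tested.

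**Figure D4:**
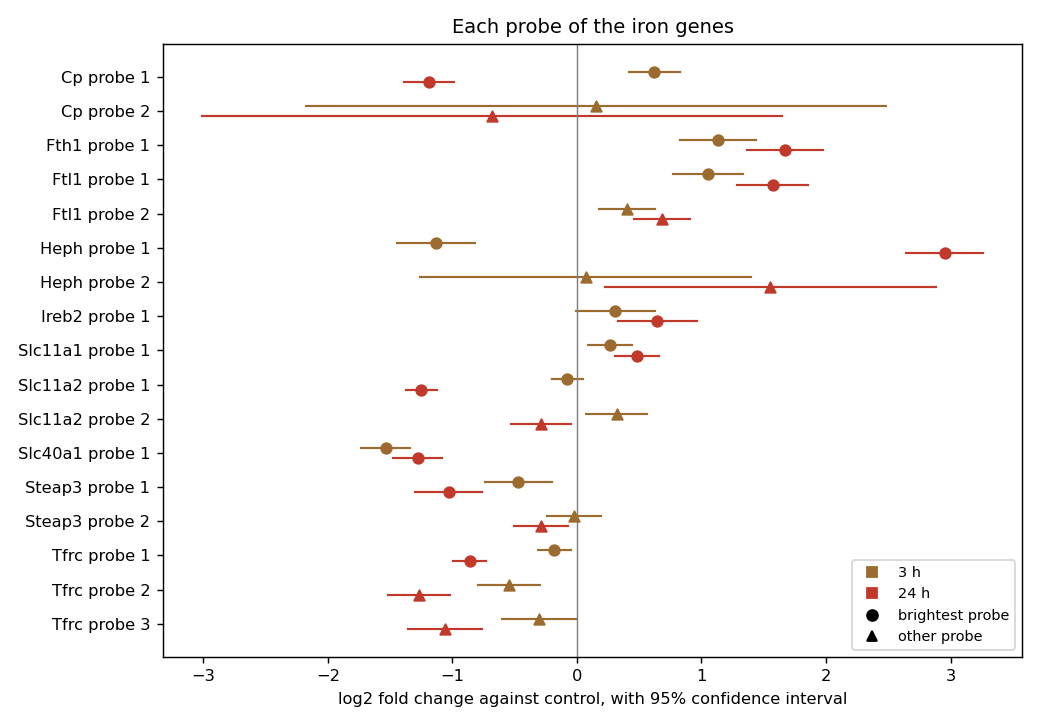
Log2 fold change against control (x axis) at 3 h and 24 h for each of the 17 probes of the iron genes that were above background on at least 1 array, with 95% confidence intervals. Circles are the brightest probe of a gene and triangles the others. The probes of Tfrc agree in direction, those of Slc11a2 differ at 3 h, and the dim probes of Cp and Heph have wide intervals.

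Over the 3 groups together, all 10 iron genes changed by limma's F test, where 70.5% of all genes did so. All 10 also had an R2, the share of a gene's variance that lay between the groups, above 0.7, against 65.2% of genes, and 8 had an R2 above 0.9, against 41.5%. Slc11a1, with an R2 of 0.898, and Ireb2, with 0.78, were below the higher limit.

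Beyond these 10, 69 other genes of iron and heme handling were listed by role, of which 66 were on the array by name and 55 were tested. At 3 h, 11 of the 55 were higher and 20 lower, 56.4% in all against 53.8% of all genes. At 24 h 14 were higher and 28 lower, 76.4% against 63.1%. Their median log2 fold change was -0.10 at 3 h and -0.31 at 24 h. Falls outnumbered rises in 4 of the 5 lists at 24 h, and also over all genes (33.2% lower and 29.9% higher). By list, the share called at 3 h ran from 28.6% for storage and control by iron to 87.5% for heme synthesis. At 24 h it ran from 57.1% for uptake and transport to 87.5% for heme synthesis.

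Of 14 other uptake and transport genes, 1 was higher and 4 lower at 3 h, and 2 were higher and 6 lower at 24 h. Lcn2, a siderophore-binding protein, fell by 1.78 on the log2 scale at 3 h (SE 0.21, adjusted p = 0.000284) and by 0.72 at 24 h (adjusted p = 0.0186). Steap1, a relative of Steap3, fell by 1.82 on the log2 scale at 3 h (SE 0.20, adjusted p = 0.00021), and its difference from control at 24 h was -0.30 (adjusted p = 0.232), which was called with median scaling (-0.81, adjusted p = 0.0127) and with normexp (-0.32, adjusted p = 0.018). The 24 h call of Lcn2 was lost without control replicate 2 (adjusted p = 0.0574), Ph24h replicate 1 (0.0563) or Ph24h replicate 2 (0.0597). The zinc and iron importer Slc39a8 fell by 1.74 on the log2 scale at 24 h (SE 0.08, adjusted p = 1.68e-06), as did Hfe, a partner of the transferrin receptor, by 1.41 (SE 0.06, adjusted p = 1.05e-06). At 3 h Slc39a8 was at -0.13 (adjusted p = 0.182) and Hfe at -0.10 (adjusted p = 0.171), which did not pass, but with median scaling both did (-0.38, adjusted p = 0.0259, and -0.35, adjusted p = 0.0128).

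Of 7 other genes of storage and of control by iron, 2 were higher and none lower at 3 h, and 3 were higher and 2 lower at 24 h. Fbxl5, the iron-sensing ligase subunit that marks IRP2 for degradation, differed by -0.10 at 3 h (adjusted p = 0.25) and rose by 1.66 on the log2 scale at 24 h (SE 0.07, adjusted p = 1.28e-06). Ncoa4, the receptor that delivers ferritin for autophagy, fell by 0.68 on the log2 scale at 24 h (SE 0.05, adjusted p = 2.27e-05) and was at -0.02 at 3 h (adjusted p = 0.802). With median scaling Fbxl5 and Ncoa4 were called lower at 3 h (-0.35, adjusted p = 0.0217, and -0.26, adjusted p = 0.0174). The iron chaperone Pcbp1 rose by 0.53 at 3 h (SE 0.07, adjusted p = 0.000486) and by 0.39 at 24 h (adjusted p = 0.00178). The 24 h rise of Pcbp1 was -0.12 with median scaling (adjusted p = 0.321). Epas1, which encodes the hypoxia factor HIF-2α, rose by 1.06 at 3 h (SE 0.15, adjusted p = 0.00076) and 1.68 at 24 h (SE 0.15, adjusted p = 5.58e-05) on its brightest probe, but its mean over probes was -0.07 and -0.16, and neither passed.

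Of 11 genes of heme uptake, breakdown and export, 4 were higher and 3 lower at 3 h, and 4 were higher and 5 lower at 24 h. Hmox1, which encodes heme oxygenase 1 and frees iron from heme, was at 8.51, 8.54 and 8.57 in control, 9.09, 9.14 and 9.12 at 3 h and 10.03, 10.00 and 9.97 at 24 h. It rose with ferritin and without overlap between groups, by 0.58 on the log2 scale at 3 h (SE 0.05, adjusted p = 5.42e-05) and 1.46 at 24 h (SE 0.05, adjusted p = 4.78e-07). The rise of Hmox1 was smaller but still passed with quantile normalization (0.24 and 1.01), normexp (0.27 and 0.94) and median scaling (0.33 and 0.96). Hp, which encodes haptoglobin, a hemoglobin-binding protein, rose 2.84-fold at 3 h (adjusted p = 1.75e-05) and 3.06-fold at 24 h (adjusted p = 9.37e-06). Lrp1, a receptor for hemopexin and many other ligands, fell by 0.49 on the log2 scale at 3 h (adjusted p = 0.0178) and by 1.14 at 24 h (SE 0.14, adjusted p = 0.00023), the former lost without control replicate 3 (adjusted p = 0.0574) or Ph3h replicate 1 (0.054). Abcg2, a transporter that can export porphyrins, fell by 0.47 on the log2 scale at 3 h (adjusted p = 0.00104) and by 1.06 at 24 h (SE 0.07, adjusted p = 1.39e-05).

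Of 8 heme synthesis genes, 1 was higher and 6 lower at 3 h, and 2 were higher and 5 lower at 24 h. Cpox fell by 0.72 on the log2 scale at 3 h (SE 0.08, adjusted p = 0.000201) and by 0.91 at 24 h (adjusted p = 4.5e-05). Urod fell by 0.63 on the log2 scale at 3 h (SE 0.06, adjusted p = 0.000106) and by 0.20 at 24 h (adjusted p = 0.0221), and Uros fell by 0.37 (adjusted p = 0.0484) and by 0.56 (adjusted p = 0.00793). Alad fell by 0.60 on the log2 scale at both times on its brightest probe (SE 0.09, adjusted p = 0.00076 at 3 h and 0.00061 at 24 h), and its mean over probes was 0.05 at 3 h (adjusted p = 0.714) and -0.15 at 24 h (adjusted p = 0.257). The call of Uros at 3 h was lost when any control array, Ph3h replicate 1 or 3 or Ph24h replicate 2 or 3 was left out, with adjusted p from 0.0603 to 0.137, and with the slide as a block (adjusted p = 0.0666), without a filter (0.0519), with only the groups compared (0.0622), on slide 1 alone (0.179) and with the mean over probes (0.166). That of Urod at 24 h was lost when control replicate 1 or 2 or Ph24h replicate 1 or 3 was left out, with adjusted p from 0.0548 to 0.0714. The Urod call at 24 h was also lost with normexp (-0.13, adjusted p = 0.102) and on slide 1 alone (-0.20, adjusted p = 0.0967). On slide 1 alone the 24 h call of Uros was lost too (-0.61, adjusted p = 0.064).

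Of 15 genes of mitochondrial iron and iron-sulfur clusters, 3 were higher and 7 lower at 3 h, and 3 were higher and 10 lower at 24 h. The mitochondrial iron importers moved at different times. Slc25a28, which encodes mitoferrin 2, rose by 1.61 at 3 h (SE 0.06, adjusted p = 1.23e-06) and 0.47 at 24 h (adjusted p = 0.00039), the latter -0.04 with median scaling. Slc25a37, which encodes mitoferrin 1, was at -0.36 at 3 h (SE 0.14, adjusted p = 0.0604) and rose by 0.92 at 24 h (SE 0.14, adjusted p = 0.000737). Its 3 h value was called without Ph3h replicate 2 (adjusted p = 0.0246) or Ph24h replicate 1 (0.0412). It was also called with median scaling (-0.60, adjusted p = 0.00803), normexp (-0.40, 0.0113), the mean over probes (-0.56, 0.00259), a variance trend (0.0131) and the stricter filter (0.0436). The remaining fits did not call it. Lyrm4, an assembly factor of iron-sulfur clusters, fell by 0.47 on the log2 scale at 3 h (adjusted p = 0.000234) and by 1.14 at 24 h (SE 0.05, adjusted p = 2.21e-06).

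**Figure D5:**
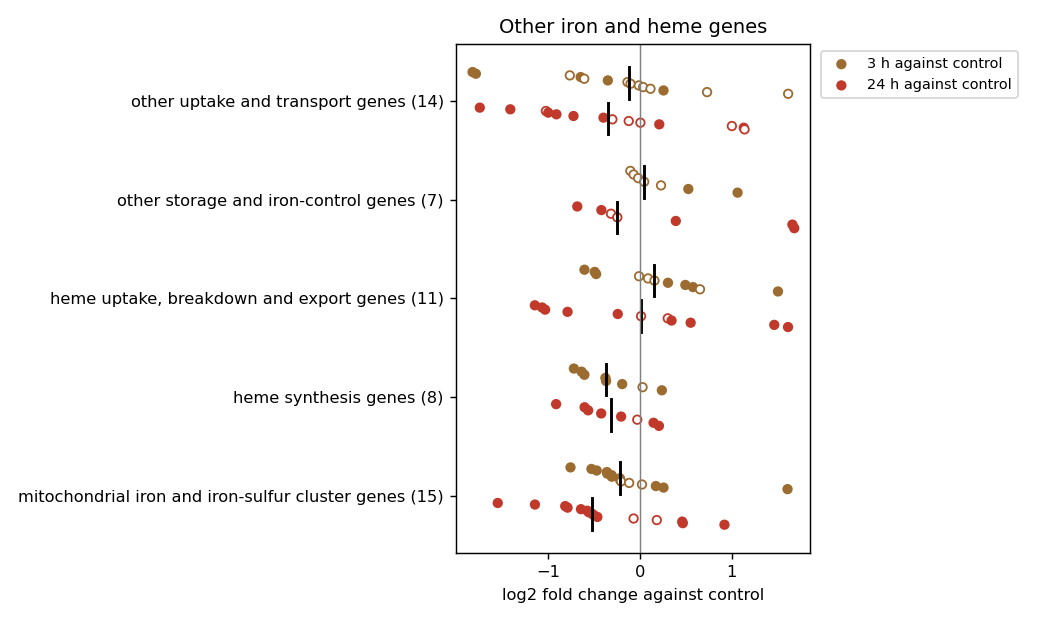
Log2 fold change against control (x axis) of 55 other iron and heme genes at 3 h and 24 h, by list (y axis, number tested in parentheses). Filled points passed the test at an adjusted p below 0.05, open points did not, and black bars are the median of the list. Every list but that of heme uptake, breakdown and export has its 24 h median below 0.

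The hepcidin genes Hamp and Hamp2, whose peptide removes ferroportin from the membrane, were on the array but not well above background on any of the 9 arrays, as were Steap4, Cybrd1, Ltf, Ftmt, Bmp6, Tmprss6, Hephl1, Cd163 and Alas2.

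RefSeq promoter sequences (GRCm38.p6) were held for 7 of the 10 genes, 13 start sites in all, and the 250 bases before each were searched. The Tfrc promoter is shown because it alone held matches to several of the motifs searched. It lies at chr16:32608872-32609121 on the plus strand, and capitals mark, in order, ACGTG, the core of hypoxia response elements, TGACG, the core of cAMP response elements, and TATAA.
Tfrc promoter: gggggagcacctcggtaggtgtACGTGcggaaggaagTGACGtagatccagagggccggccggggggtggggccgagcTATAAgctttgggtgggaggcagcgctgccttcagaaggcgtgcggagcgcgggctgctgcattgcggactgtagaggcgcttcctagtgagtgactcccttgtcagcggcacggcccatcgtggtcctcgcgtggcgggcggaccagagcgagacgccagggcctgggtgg

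The matches begin 228, 213 and 172 bases before this start site. Searched on both strands, ACGTG was in 16.6% of 32851 promoter sequences and in 1 of the 13, and TGACG was in 17.8% and in 1 of the 13. TGACNNNGC, the core of antioxidant response elements, was in 10.2% of all and in none of the 13. TATAA on the coding strand was in 16% of all and in 2 of the 13, those of Cp and Tfrc. A match says only that these letters stand in the window.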

How the data were processed

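The authors deposited 1 scanner file per array, whose processed signal is a background-subtracted fluorescence intensity made with Agilent Feature Extraction 10.7.3.1 on a mouse 60-mer array (mm9), 62976 spots each. A second file that the authors deposited gives log2 values of 36655 probes, made with GeneSpring GX, and served here only as an alternative. Its differences between groups rose with those of the scanner intensities (slope 0.963 at 3 h and 0.961 at 24 h over 32401 probes), its values are centered per probe, and how its arrays were scaled is unstated. Its column medians were 0.0948, 0.0897 and 0.0981 in control, 0.00611, 0.00211 and -0.00553 in Ph3h and -0.0715, -0.0471 and -0.0543 in Ph24h. Because those values are centered per probe, they do not compare levels between genes such as Fth1 and Ftl1.

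Intensities were taken to log2, non-uniform and outlier spots were left out, spots of 1 probe were averaged, and each array's 75th percentile over gene probes was subtracted. Missing values removed 56 probes. A probe stayed if 1 or more of the 9 arrays measured it well above background (34381 probes), and the brightest probe stood for each of 24101 genes. Replicate arrays correlated at 0.9813 to 0.9902. A limma fit (limma 3.58.1, R 4.3.3, jsonlite 2.0.0, data.table version 1.17.8) gave group means over all 9 arrays, with Benjamini-Hochberg adjustment over all genes (over all probes for other probes of a gene) and a call at an adjusted p below 0.05. The 3 h and 24 h comparisons share the control arrays. The fit was also run on simulated data with independent noise and few changed genes, which does not test the scaling of the arrays. The accessions of all 18 probes have the same symbol in RefSeq.

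All 10 genes are named, and of each list of other genes the up to 4 called genes with the largest change. The genes and lists were chosen with earlier results of these data known, and the array names Ftl2, Flvcr1 and Flvcr2 were not found. Alternatives were quantile or median scaling, normexp with an offset of 50 followed by quantile normalization, the authors' values, and a stricter filter or none. Others were the mean over probes, replicate or slide as a block, slide 1 alone, a variance trend, only the groups compared, and each array left out. Some results that the rule for named genes or the marker lists would give are not reported here.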

Additional observations from a re-analysis of the deposited data

Results flagged for a closer look

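The change between 3 h and 24 h passed the test for 9 of the 10 iron genes, which means that their effects against the same control arrays differed between the times. On the log2 scale, 24 h minus 3 h was -0.68 for Tfrc, -1.17 for Slc11a2, -0.56 for Steap3 and -1.81 for Cp, and it was 0.21 for Slc11a1, 0.54 for Fth1, 0.52 for Ftl1, 0.26 for Slc40a1 and 4.08 for Heph. For Heph and Cp the change against control also had opposite signs at the 2 times. The values for Slc11a1 and Slc40a1 were near the threshold (adjusted p = 0.0499 and 0.0378) and passed in 6 and 12 of 21 fits. The value for Slc11a1 failed the test when any single array other than Ph24h replicate 3 was left out, with adjusted p from 0.0606 to 0.119. Fth1, Ftl1, Steap3 and Cp passed in 20, 18, 20 and 20 of 21.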

How the results depend on the processing

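Iron genes passing the test numbered 5 to 8 at 3 h, 8 to 10 at 24 h, 5 to 9 between 3 h and 24 h and 8 to 10 over time across the alternatives other than leaving out an array. Across these alternatives, 45.5% to 64.7% of all genes passed at 3 h and 55.5% to 73% at 24 h. Between 3 h and 24 h the share of all genes was 28.9% to 55.2%. With slide 1 alone 5 passed at 3 h (3 higher, 2 lower, where 45.5% of all genes passed), without Tfrc, Slc11a1 and Steap3 (adjusted p = 0.109, 0.12 and 0.0683), and with median scaling 5 passed between 3 h and 24 h (1 higher, 4 lower, where 45.6% of all genes passed). Leaving out each array gave 6 to 8, 10 to 10, 7 to 9 and 10 to 10, and for the other iron and heme genes 24 to 32 at 3 h and 36 to 44 at 24 h. In the same fits 47.5% to 54.6% of all genes passed at 3 h and 56.9% to 62.6% at 24 h. Between 3 h and 24 h it was 39.2% to 43.3% of all genes. The replicate numbers did not pair the samples, since the deviations of same-numbered arrays correlated at -0.057 to 0.041 and others at -0.042 to 0.041. With the replicate block, and also with the slide as a block, 8, 10 and 8 iron genes passed. Of all genes, 51.9%, 61.3% and 41.7% passed with the replicate block, and 53.7%, 62.8% and 44.1% with the slide as a block. Under the replicate block the only lost call among the genes named was Slc11a1 between 3 h and 24 h (0.21, adjusted p = 0.0672). With the slide as a block, that call (adjusted p = 0.0521) and Uros at 3 h (0.0666) were lost.

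Directions turned at 3 h for Slc11a1 with normexp (-0.015), Slc11a2, Alad and Epas1 with the mean over probes (0.12, 0.051 and -0.073) and Ncoa4 on slide 1 alone and without Ph3h replicate 3 (0.016 and 0.014). At 24 h they turned with median scaling for Slc11a1, Slc25a28 and Pcbp1 (-0.027, -0.039 and -0.12) and with the mean over probes for Epas1 (-0.16). Between 3 h and 24 h they turned with median scaling for Slc11a1, Slc40a1, Alad and Hp (-0.048, -0.006, -0.26 and -0.15), with the mean over probes for Alad and Epas1 (-0.20 and -0.09), and for Alad, at 0.0021 with all arrays, without Ph3h replicate 1, Ph3h replicate 3 or Ph24h replicate 2 (-0.052, -0.0016 and -0.070, and -0.070 to 0.059 over all 9 left out in turn). Median scaling shifted the median of all genes by -0.245 at 3 h and -0.508 at 24 h (log2), and 33.6% and 23.8% of its called genes were higher than control, against 51.8% and 47.4%. Quantile normalization shifted it by -0.137 and -0.143 (42.9% and 40.1% of its called genes higher), the authors' table by -0.134 and -0.145, and normexp by -0.104 and -0.069. The other probes of Cp and Heph and the single probe of Ireb2 were dim, which limits their precision.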
